A study of Mus musculus with 24 samples.

Results

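The Zfp genes are the mouse genes whose symbols start with Zfp and a number, most of them coding for zinc finger proteins. They were followed here as targets of Argonaute 2 (AGO2), the protein that holds a microRNA and brings it to messenger RNAs. All rows of the authors' deposited table of AGO2 binding peaks whose symbol starts with Zfp and a digit were taken, except those starting with Zfp36. That prefix removed the CCCH-type genes Zfp36, Zfp36l1 and Zfp36l2, whose proteins bind AU-rich RNA, and by its letters also Zfp362 and Zfp367. The choice left 344 of 14634 peaks and 78 of 4165 genes.

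The study used HITS-CLIP, in which AGO2 is crosslinked to RNA and immunoprecipitated and the bound RNA is sequenced, in CD4+ T cells of C57BL/6 mice that came from the spleen and lymph nodes. Activation lasted 4 days, with IL-2 at 20 U/mL and, at 1 µg/mL, antibodies that engage CD3 and CD28. Wild type, with 12 libraries, was compared with miR-155 knockout, with 12, and both linkers used at the 3′ end were shared out evenly, 6 libraries each per genotype. The knockout lacks miR-155, a microRNA that rises when lymphocytes are activated, and all other culture conditions were shared.

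The table holds 1 pooled value per genotype for each peak, so library, linker and replicate spread cannot be read from it, and nothing below carries an error between libraries. Reads are given as scaled reads, that is 2 to the power of the deposited log2 value minus 1. The labels do not say how the authors scaled them. The p-values are those of the authors' deposited table, adjusted here (Benjamini-Hochberg) over the 14634 peaks. A peak is called lowered when it had fewer reads in the knockout at an adjusted p under 0.05, and raised when it had more. A sum of reads over peaks mixes the amount of the messenger RNA with how often AGO2 sat on it, and no messenger RNA levels were used here. Of 12 marker genes of CD4+ T cells, 10 had peaks (7369 wild-type and 9325 knockout reads) and Cd5 and Cd6 had none. None of 6 B cell markers and none of 5 CD8 and NK cell markers had a peak, and among 6 myeloid markers Mpeg1 alone did, with 122 wild-type and 0 knockout reads.

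Most Zfp proteins carry C2H2 zinc fingers, small folds in which 2 cysteines and 2 histidines hold a zinc ion and which usually read DNA. Many also carry a KRAB domain, which recruits the corepressor TRIM28 and with it histone methylation that silences genes and transposable elements. A microRNA finds its targets mainly through its seed, bases 2 to 8, which pairs with the 3′ untranslated region (3′ UTR) of the messenger RNA. As a check of the name, the usual C2H2 spacing of cysteines and histidines was found in the coding sequence of 76 of the 78 genes, with a median of 9 fingers and up to 30, in Zfp236. The pattern was not found in Zfp703, a nuclear corepressor, or in Zfp839.

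Without miR-155, 3 Zfp peaks were lowered, and each holds a match to its seed. The sites are printed because they carry the only called differences in the gene group. Those of some other Zfp peaks that hold a miR-155 match are printed beside them. The matched peaks of Zfp187, Zfp236, Zfp260, Zfp664 and Zfp871, all without knockout reads, are left out of the list. The mature microRNA is from RefSeq, with its seed in capitals. Each site is shown in 30 nt of the deposited peak sequence, 5′ to 3′ in the sense of the messenger RNA. Capitals mark the 7-nt or 8-nt match, as defined below the list. Positions are on GRCm38, from an exact match of the sequence to GENCODE M21 transcripts, and all lie in the 3′ UTR of the last exon.
mmu-miR-155-5p: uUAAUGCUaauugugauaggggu
Zfp518a peak 4 (chr19:40917415-40917444, plus strand, exon 5 of 5): ttagttctctgcatGCATTAAtaaaagtgg
Zfp654 peak 5 (chr16:64781300-64781329, minus strand, exon 2 of 2): atacaaatccataaAGCATTAcattttctt
Zfp831 peak 2 (chr2:174706724-174706753, plus strand, exon 5 of 5): tgcaaaggaacattGCATTAAgttagtaaa
Zfp652 peak 1 (chr11:95764405-95764434, plus strand, exon 6 of 6): tgaggttagtccagAGCATTAActatatca
Zfp652 peak 2 (chr11:95764504-95764533, plus strand, exon 6 of 6): caatatcaAGCATTAtagagaagatgggaa
Zfp277 peak 1 (chr12:40315622-40315651, minus strand, exon 13 of 13): gattgtccacacAGCATTAttcacggctga
Zfp568 peak 4 (chr7:30027349-30027378, plus strand, exon 9 of 9): gagttcgggacacaAGCATTAcctcaggtt
Zfp703 peak 1 (chr8:26980258-26980287, plus strand, exon 2 of 2): ctgggaacataagtGCATTAAtgaccacat
A match to seed bases 2 to 8 is AGCATTA, called 7mer-m8, and a match to bases 2 to 7 followed by an A is GCATTAA, called 7mer-A1. The 8mer joins both, and among the printed sites it occurs in Zfp652 peak 1. Only the strand of the messenger RNA was searched.

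Zfp518a peak 4 had 77.7 wild-type and 1.5 knockout reads, the largest log2 ratio among Zfp peaks with at least 20 reads (4.98, p = 3.38e-17 in the authors' deposited table, adjusted p = 4.50e-14). It starts 1352 nt into the 3′ UTR. Peak 3 of the same gene ends at nt 1339, just upstream, and holds an 8mer for miR-19; it had 44.0 wild-type and 20.4 knockout reads (p = 0.386). The other 4 peaks of Zfp518a held between 2.70 and 14.6 scaled reads in the genotype where they were higher, and none had a p under 0.05. Over the whole gene the sums were 152 wild-type and 31.0 knockout reads.

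In Zfp654, peak 5 had 82.1 wild-type and 4.43 knockout reads (log2 ratio 3.94, p = 6.1e-14 in the authors' deposited table, adjusted p = 5.58e-11). Its neighbour peak 4, which starts at nt 1903 of the 3′ UTR against nt 1945 for peak 5, holds no site of the families searched and had 14.03 wild-type and 0 knockout reads (p = 0.0211, adjusted p = 0.832). Both peaks were thus higher in wild type, but the neighbour did not pass the adjusted threshold. Peaks 1 and 3 of the gene had more knockout reads, with 0 and 2.93 in wild type and 8.11 and 11.9 in the knockout, and had p-values of 0.317 and 0.327. The gene summed to 108 wild-type and 24.4 knockout reads.

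Zfp831 peak 2 had 29.5 wild-type scaled reads, with the knockout listed at 0 (log2 ratio 4.93 with the pseudocount, p = 1.32e-05 in the authors' deposited table, adjusted p = 0.00317). This call did not pass a Bonferroni adjustment over all peaks (p = 0.193), while those of Zfp518a and Zfp654 did. Of the other 6 peaks of Zfp831, 3 had more wild-type and 3 more knockout reads. Its most read peak, peak 6, had 22.4 wild-type and 38.5 knockout reads (p = 0.236), and the gene summed to 83.8 and 76.5. The sums were thus nearly level over the gene, with peaks that differed in both directions. Only peak 2 passed the adjusted threshold.

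Beside these 3 genes, 9 others had a peak with a 7-nt or 8-nt miR-155 match, so that 13 Zfp peaks in 12 genes held one. That is 3.78% of Zfp peaks and 1.81% of all peaks. Among the 13 peaks, 3 (23.1%) were lowered, and among the 252 peaks of other genes with such a match 56 (22.2%) were. Of all peaks, 84 (0.574%) were lowered, and over the Zfp peaks 3, or 0.872%. No Zfp peak was raised, and 4 of all peaks, 0.0273%, were.

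Of the 13 matched peaks, 11 had more reads in wild type (84.6%), and in other genes 236 of 252 did (93.7%). Their median log2 ratio was 2.13, against 3.21 in other genes. A knockout value of 0 was found for 7 matched Zfp peaks (53.8%), a share slightly below that of matched peaks in other genes (148, or 58.7%). Only 6 of the 13 had at least 20 scaled reads. Zfp652, a transcriptional repressor, was the only one with 2 matched peaks: peak 1 with its 8mer had 13.4 wild-type and 11.7 knockout reads (p = 0.891), and peak 2, which starts at nt 450 where peak 1 ends at nt 441, had 10.1 and 0 (p = 0.155). The other 8mer, in Zfp236 peak 1, stood in a peak with few reads (2.29 wild-type and 0 knockout reads).

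A pair of matched peaks had more knockout reads. Zfp568 codes for a KRAB protein known as a repressor of Igf2 in the placenta. Its peak 4 was listed at 0 in wild type and had 24.6 scaled reads in the knockout, the lowest log2 ratio among Zfp peaks with at least 20 reads (-4.68, p = 0.0662 in the authors' deposited table). The same peak also holds a 7-nt let-7 match and a 7-nt miR-23 match. Zfp703 peak 1 had 4.47 wild-type and 19.7 knockout reads (p = 0.805). A wide difference could thus have a large deposited p, and the reverse was seen in Zfp260 peak 1, with 5.20 and 4.11 and a p of 0.0116.

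The remaining matched peaks were small. Zfp277 peak 1 had 13.6 wild-type and 6.32 knockout reads. Peak 3 of Zfp187, now named Zscan26, had 9.95 in wild type, Zfp260 peak 2 had 3.44, Zfp664 peak 2 had 3.39, Zfp236 peak 1 had 2.29 and Zfp871 peak 28 had 0.822, and all 5 were listed at 0 in the knockout. None of these 6 peaks passed the adjusted threshold. A further 4 peaks held a 6-nt match only, in Zfp280c, Zfp281, Zfp512 and Zfp516, and 3 of them were higher in wild type.

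**Figure D1:**
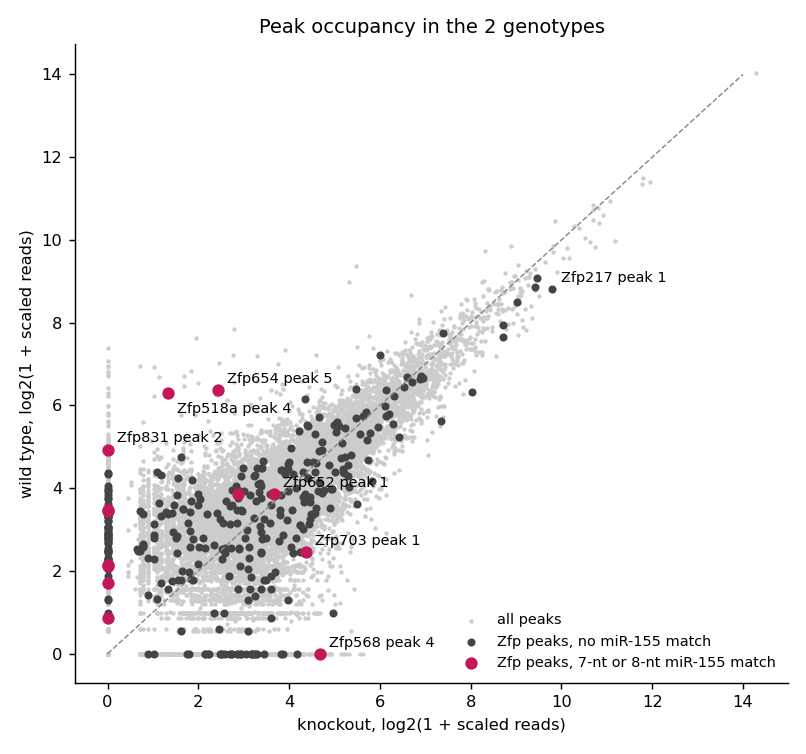
Reads of each peak in the knockout (x axis) and in wild type (y axis), both as log2(1 + scaled reads), with 1 point per peak, all peaks in grey, Zfp peaks in black and Zfp peaks with a 7-nt or 8-nt miR-155 match in magenta. The lowered peaks of Zfp518a, Zfp654 and Zfp831 lie far above the dashed line of equality, while Zfp217 peak 1 and most of the strongly read Zfp peaks lie below it.

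The 331 Zfp peaks without a miR-155 match held 7229 wild-type and 8673 knockout reads, with a median log2 ratio of 0.23 and no lowered or raised peak. Among the 14634 peaks of all genes, 84 were lowered and 4 raised, and 59 of the lowered ones held a miR-155 match. Called peaks without a match were thus rare in general, and a set of 331 says little by holding none. Over all 344 Zfp peaks the sums were 7480 and 8742, a knockout to wild-type ratio of 1.17, against 1.01 for the whole table (371088 and 374126). The median log2 ratio was 0.24 (quartiles -0.83 and 1.78), against 0.20 over all peaks (-0.61 and 1.33). The sum and the median thus lie on opposite sides of equality, and over peaks with at least 20 scaled reads the Zfp median turned to -0.15, while that of all peaks was -0.00. By gene, 45 had the higher sum in wild type and the other 33 had it in the knockout (42.3%, against 43.0% of all genes).

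The directions split by how much was read. The 5 genes with the most reads summed to 4119 wild-type and 5656 knockout reads (ratio 1.37), and the other 73 genes to 3361 and 3086 (ratio 0.918). Of the 27 Zfp peaks with at least 100 scaled reads, 20 had more in the knockout (74.1%, median log2 ratio -0.28). Among the 1376 such peaks of other genes, 781 did (56.8%, median -0.09). None of these Zfp peaks passed the adjusted threshold. Several of them belong to the same gene, so they are not separate cases. Counted by gene the lean was smaller. Of the 26 Zfp genes with at least 100 scaled reads, 15 had the higher sum in the knockout and 11 had it in wild type.

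At an unadjusted p under 0.05, 13 Zfp peaks (3.78%) had more wild-type reads and 6 (1.74%) more knockout reads. Over all peaks these were 398 (2.72%) and 217 (1.48%). Beyond the lowered peaks, the smallest p-values belonged to Zfp568 peak 1 (20.2 wild-type and 1.11 knockout reads, p = 0.00102, adjusted p = 0.130) and Zfp280b peak 10 (0.974 and 30.1, p = 0.00283, adjusted p = 0.255). Zfp568 therefore has, in 1 message, a peak far higher in wild type and another far higher in the knockout, and neither passed the adjusted threshold. The next were Zfp445 peak 4 (13.3 and 0), Zfp703 peak 2 (0 and 13.1), Zfp292 peak 5 (11.3 and 44.1), Zfp260 peak 1 and Zfp664 peak 1 (11.3 and 0), with p-values between 0.00400 and 0.0116. Other wide ratios at 20 or more reads were those of Zfp238 peak 3 (19.0 and 1.27, log2 ratio 3.14) and Zfp871 peak 14 (4.59 and 19.3, log2 ratio -1.86).

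AGO2 reads were spread very unevenly over the genes. Zfp280b, Zfp217, Zfp275, Zfp871 and Zfp281 together took 60.3% of the scaled reads, while 22 genes had fewer than 20. The median gene had 45.8, against 44.9 over all genes, and 2 peaks, as over all genes. Per kilobase of annotated 3′ UTR the median was 19.9 scaled reads over the 74 genes with a length, against 29.96 over all genes, and the same 5 genes stood first on that scale, from 183 in Zfp871 to 1157 in Zfp217. All of the Zfp peaks together made up 2.18% of the reads in the table.

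Zfp280b had the most reads of the 78 genes, 1042 wild-type and 1604 knockout reads over 18 peaks. Most of this came from a few places in its 3′ UTR. Peak 8, which starts at nt 1296 and holds a miR-26 8mer in its flank, had 545 and 708 (p = 0.690), and peak 14, with a miR-30 8mer, had 201 and 420 (p = 0.193). Peak 15, with a 7-nt miR-27 match, had 48.2 and 162 (p = 0.211), and peak 11, with a let-7 8mer, had 98.5 and 117 (p = 0.842).

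Zfp217 codes for a protein of corepressor complexes that is amplified in human cancers. It had 921 wild-type and 1436 knockout reads over 17 peaks. Its peak 1, which starts 70 nt after the stop codon and holds none of the family sites searched, was the most read of all Zfp peaks, with 450 and 891 (log2 ratio -0.98, p = 0.0269 in the authors' deposited table, adjusted p = 0.941). Its peak 10 (100 and 122) held sites of 3 families, the largest number in a single Zfp peak together with Zfp568 peak 4. Zfp275 had 938 and 1248 over 14 peaks, led by peaks 6 (468 and 680, p = 0.368) and 7 (244 and 419, p = 0.0518), neither with a family site.

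Sites of other microRNAs in the strongly read peaks are shown in the same form, because these peaks are among the most read of the gene group. Capitals mark an 8mer, that is a match to seed bases 2 to 8 followed by an A.
Zfp280b peak 8, miR-26 (chr10:76041204-76041233, plus strand, exon 2 of 2): cacactaatactgcttgggtctTACTTGAA
Zfp280b peak 11, let-7 (chr10:76042331-76042360, plus strand, exon 2 of 2): agcctgcatggctgCTACCTCActcgtggt
Zfp280b peak 14, miR-30 (chr10:76042656-76042685, plus strand, exon 2 of 2): gtgtcactttgttcTGTTTACAcgtgtatt
Zfp217 peak 10, miR-24 (chr2:170109237-170109266, minus strand, exon 6 of 6): ttcccgtccacaagCTGAGCCAtatgtaca
Zfp217 peak 10, miR-21 (chr2:170109222-170109251, minus strand, exon 6 of 6): tgagccatatgtacATAAGCTAgactgttt
Zfp275 peak 9, let-7 (chrX:73357550-73357579, plus strand, exon 6 of 6): atgcattcgtgtatCTACCTCAttgcactt
The miR-24 and miR-21 sites of Zfp217 lie in 1 peak and start 15 nt apart, and the third site of that peak is a 7-nt match of the miR-17 family. The microRNAs whose seeds match these sites, from RefSeq with the seed in capitals, are the following.
mmu-miR-26a-5p: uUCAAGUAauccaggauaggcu
mmu-let-7a-5p: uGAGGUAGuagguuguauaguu
mmu-miR-30a-5p: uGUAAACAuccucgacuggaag
mmu-miR-24-3p: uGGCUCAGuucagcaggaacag
mmu-miR-21a-5p: uAGCUUAUcagacugauguuga
The let-7 sites of Zfp280b and Zfp275 match the same seed, which 9 mature microRNAs of the table share. The let-7 peak of Zfp275 had 83.0 wild-type and 43.2 knockout reads (p = 0.892).

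Zfp871 had the most peaks, 37, in an annotated 3′ UTR of 8856 nt, with 746 wild-type and 871 knockout reads. Of its reads, 54.3% came from peak 12 (360 and 518, p = 0.126). Zfp281, a factor known from pluripotent stem cells, was covered differently: its 23 peaks lay in 2086 nt, or 11.0 peaks per kilobase, the densest of the 74 genes, and its largest peak held 18.3% of its reads. It had 472 wild-type and 497 knockout reads. No peak of Zfp281 held a 7-nt or 8-nt site of the 16 families searched.

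Zfp507 had 150 wild-type and 363 knockout reads, and its peak 7 gave most of this with 79.3 and 260 (log2 ratio -1.70, p = 0.380 in the authors' deposited table). Zfp91 codes for an atypical ubiquitin ligase of the noncanonical NF-kB pathway and had 242 and 258 over 16 peaks. Its largest peak, peak 11, had 62.5 and 68.4 and a 7-nt miR-142-3p match. Zfp513 had a single peak, with 216 and 167.

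Zfp652 had 177 wild-type and 154 knockout reads, of which 104 and 120 came from its peak 5, outside the miR-155 sites. Zfp238, now named Zbtb18, codes for a BTB-type repressor of neuronal development and had 199 and 130 over 11 peaks. Zfp292 had 142 and 167, Zfp26 had 142 and 149 over 14 peaks, and Zfp445, a KRAB protein that maintains genomic imprints, had 104 and 107. Zfp266 had 160 and 85.9, nearly all in peak 1 (149 and 63.2), for which the authors' deposited p was 0.991. Zfp597 had 67.7 and 116. Of these 7 genes, 3 had the higher sum in wild type and 4 had it in the knockout, and none had a peak past the adjusted threshold.

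Of the 15 genes with the most reads, 11 had the higher sum in the knockout and 4 in wild type. Of the 63 genes after them, 22 had it in the knockout and 41 in wild type. Zfp518a (183 scaled reads) led these 63, and Zfp236 (2.29) had the fewest. Among the 26 genes with at least 100 scaled reads, the knockout to wild-type ratio of Zfp518a (0.203) and of Zfp654 (0.226) was the lowest and that of Zfp507 (2.42) the highest. The ratio of Zfp507 rests mostly on its peak 7, which shares sequence with a peak of another Zfp gene. Listed at 0 in the knockout over all their peaks were 6 of the 78 genes, each with fewer than 20 reads. No Zfp gene was listed at 0 in wild type. The same count over all genes was not made. By peak the whole table leans the same way, with 16.6% at 0 in the knockout and 7.87% in wild type.

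**Figure D2:**
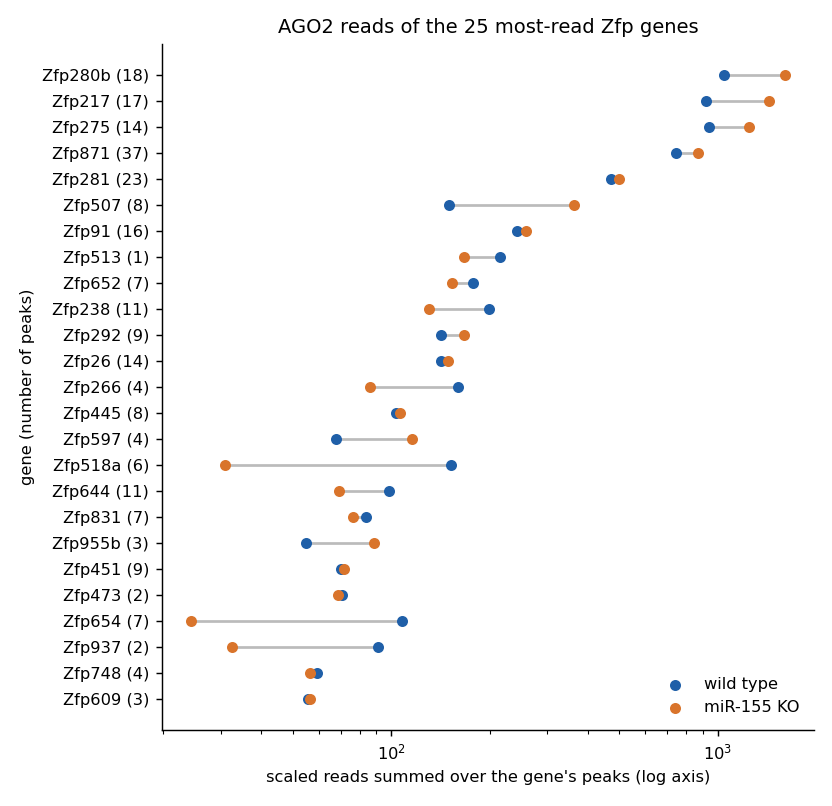
Scaled reads summed over the peaks of a gene (x axis, log scale) for the 25 Zfp genes with the most reads, wild type in blue and the miR-155 knockout in orange, 1 pooled value per genotype and so without error bars; the number of peaks stands in brackets. Zfp280b, Zfp217 and Zfp275 stand highest, with 1604, 1436 and 1248 in the knockout, and Zfp518a and Zfp654 show wide gaps towards wild type.

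Within a gene, reads gathered in few places. In the 34 genes with at least 3 peaks, the top peak held a median of 51.2% of the gene's reads. At the other end, 54 genes had 3 peaks or fewer, and 27 had a single one (34.6%, against 40.8% of all genes). The 10 most read peaks held 43.6% of all Zfp reads, and 9 of them had more reads in the knockout. Of these 10 peaks, 3 held a site of the families searched, and of the 20 most read 8 did.

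**Figure D3:**
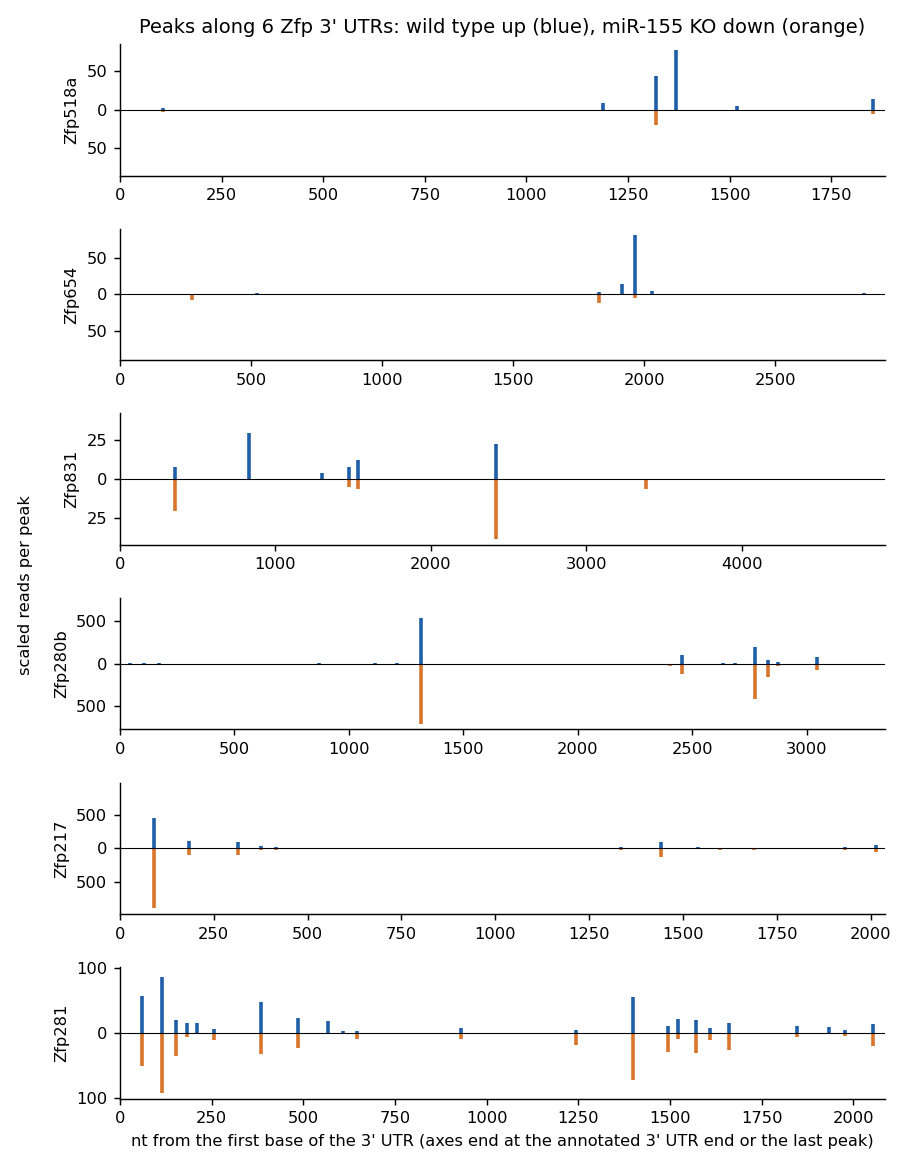
Peaks along the 3′ UTR of 6 Zfp genes, with distance from its first base in nt on the x axis and scaled reads on the y axis, wild type upward in blue and the knockout downward in orange. The miR-155 peaks that start at nt 1352 in Zfp518a, nt 1945 in Zfp654 and nt 810 in Zfp831 have almost no knockout bar, Zfp280b and Zfp217 are led by 1 tall peak each, and Zfp281 is covered along its length.

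Zfp peaks lay farther into the 3′ UTR than peaks in general. The median start was 1263.5 nt after the stop codon (quartiles 520.25 and 2507.5), against 880 nt over all peaks (345 and 1821). Starts beyond 3000 nt made up 20.3% of Zfp peaks and 11.2% of all peaks, and starts within 100 nt made up 5.52% and 7.54%. The annotated 3′ UTR was also longer, with a median of 2279 nt over 74 genes against 1766 nt over all genes. As a share of the annotated length, the median start was 42.6% over Zfp peaks and 46.0% over all peaks. This divides a deposited start by a GENCODE M21 length, and the 2 can belong to different transcripts. In Zfp703, for example, a deposited start of nt 2139 stands beside an annotated length of 1367 nt. The order of the 2 shares is therefore uncertain. These are descriptions without a test.

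A single gene weighs on the positions, since Zfp871 alone has 37 peaks; without it the median start was 1150 nt. Its last 3 peaks start at nt 8378, 8543 and 8811, farther from the stop codon than any other Zfp peak. At the near end, Zfp260, Zfp273, Zfp280b and Zfp622 each have a peak that starts at nt 11, and of these Zfp622 is a factor of ribosome biogenesis. The peak of Zfp622 had 0.511 wild-type and 4.51 knockout reads. Runs of at least 16 nt were shared between peaks of different Zfp genes in 4 pairs, so reads of those 8 peaks may be hard to assign to 1 gene. Zfp507 peak 7 and Zfp748 peak 3 are among them.

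**Figure D4:**
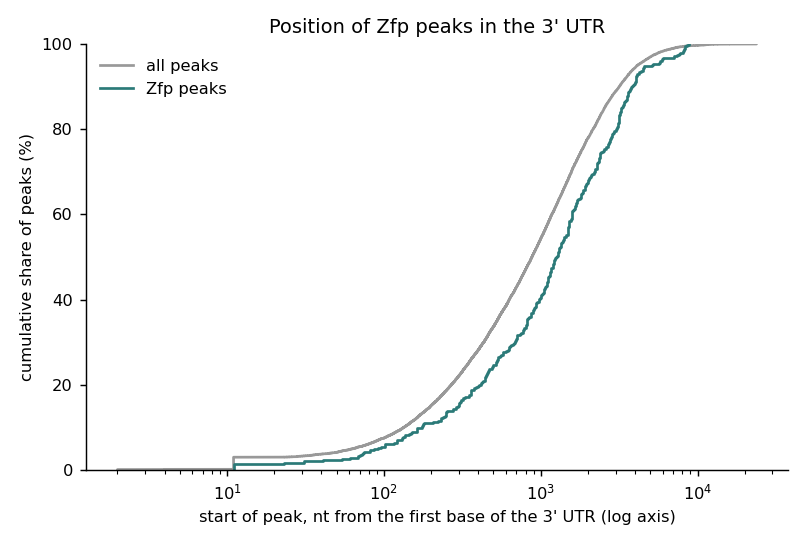
Cumulative share of peaks in percent (y axis) by the start of the peak in nt from the first base of the 3′ UTR (x axis, log scale), for Zfp peaks in green and all peaks in grey. The Zfp curve lies to the right, with medians of 1263.5 nt and 880 nt.

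In other features Zfp peaks were near the rest of the table. The median width was 38 nt, against 39 nt, and the median GC content 35.7%, against 36.8%. The AU-rich pentamer ATTTA occurred in 15.1% of Zfp peaks and 11.6% of all, and the poly(A) signal AATAAA in 10.8% and 9.57%. The median peak had 14.3 scaled reads, against 17.0 over all peaks, and 40.7% of Zfp peaks had at least 20, against 45.1%. A genotype was listed at 0 in 9.01% of Zfp peaks (wild type) and in 18.9% (knockout), against 7.87% and 16.6% over all.

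Sites of the 16 families searched occurred in Zfp peaks about as often as elsewhere: 125 of 344 (36.3%) held at least 1, against 35.3% of all peaks. Sites of 2 or more families occurred in 19 Zfp peaks (5.52%, against 4.39%). By gene, 58 of the 78 had a site in some peak, 34 had sites of 2 or more families and 7 of 5 or more. By reads, 38.8% of the Zfp total lay in peaks with a site, against 45.1% over all peaks.

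The families with the most Zfp peaks were miR-142-3p and miR-23, with 15 each (4.36%, against 2.94% and 3.05% of all peaks), the miR-17 family with 14 (4.07%, against 3.71%) and miR-155 with 13. miR-30 and miR-15/16 followed with 12 each (3.49%, against 2.92% and 4.58%), then let-7 with 10 (2.91%, against 1.93%) and miR-27 with 10 (2.91%, against 3.59%). The fewest were those of miR-25/92, with 3 (0.872%, against 2.77%), and of miR-24, with 4 (1.16%, against 1.13%). miR-146 sites occurred in 5 Zfp peaks (1.45%, against 0.588%). Weighed by reads the order changes: the 5 peaks with a miR-26 site held 9.10% of the Zfp reads, with 1252 of 1476 scaled reads in Zfp280b peak 8. The site of that peak lies mostly in its flank, since it starts at nt 1332 and the peak ends at nt 1333. miR-142-3p sites took 5.71% and miR-155 sites 1.97%. Over all peaks, miR-26, miR-142-3p and miR-155 sites took 2.03%, 4.81% and 1.64% of the reads. For miR-155, Zfp peaks and all peaks were thus closer by share of reads than by share of peaks.

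**Figure D5:**
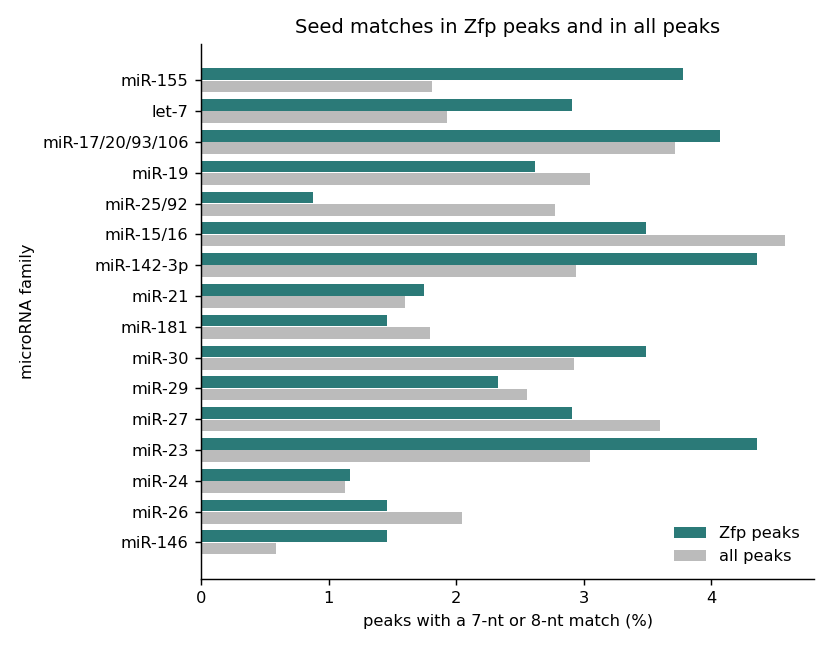
Percent of peaks with a 7-nt or 8-nt site of each of 16 microRNA families, for Zfp peaks and for all peaks. miR-155 (3.78% and 1.81%) and miR-142-3p (4.36% and 2.94%) lie higher in Zfp peaks, and miR-25/92 (0.872% and 2.77%) lies lower.

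Peaks with more than 1 family show how closely sites can be packed. Peak 1 of Zfp937 held 8mers of miR-142-3p and miR-181 and had 70.8 wild-type and 19.4 knockout reads (p = 0.236). Zfp748 peak 3 held 8mers of miR-142-3p and miR-23 and had 42.6 and 36.8. Peak 2 of Zfp238 held an 8mer of the miR-17 family overlapping a 7-nt miR-19 match, and had 50.5 and 43.3. The lowered peak of Zfp518a also held a 7-nt miR-146 match beside its miR-155 site. These genes with 2 or more families in a peak were chosen after their values were seen.

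The number of fingers went with different read sums. The 25 genes with 5 to 9 fingers had a median of 99.8 scaled reads and a median 3′ UTR of 2918 nt. The 36 genes with 10 or more had 23.2 and 2023 nt, and the 17 with fewer than 5 had 46.4 and 2093 nt. More reads in the knockout were seen in 9 of the 25, 16 of the 36 and 8 of the 17. The genes with 5 to 9 fingers thus had both the most reads and the longest 3′ UTR by median, and the part of that length in the read sums was not tested. The 75 genes with a placed peak lay on 20 chromosomes, and chromosomes 7 (11 genes), 17 (8) and 13 (7) held more of them than any other.

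Genes that work with KRAB proteins, or that share the zinc finger name, were listed beside them. Of 27 genes for KRAB cofactors and silencing factors, 12 had peaks, 54 in all, with a median log2 ratio of -0.18, against 0.20 over all peaks. None of the 54 was lowered or raised, against 0.574% and 0.0273% of all peaks. None had an unadjusted p under 0.05, against 2.72% (wild type higher) and 1.48% (knockout higher) of all peaks. At such shares a set this small says little by holding no called peak. Trim28, the corepressor itself, had 3.62 wild-type and 0 knockout reads, and Setdb1, its partner histone methyltransferase, 2.44 and 0.718. Cbx5, which codes for heterochromatin protein HP1 alpha, had 241 and 199 over 13 peaks. Among DNA methyltransferases Dnmt3a had 146 and 220 over 11 peaks, and Dnmt1 had 125 and 129.

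Among the 19 BTB zinc finger genes named Zbtb, 73 peaks had a median log2 ratio of 0.10. None was lowered or raised, against 0.574% and 0.0273% of all peaks. Of the 73 peaks 47.9% held a site of the 16 families, against 35.3% of all peaks. Their median start was 2008 nt, against 880 nt. The 7 CCCH genes named Zc3h had 25 peaks with a median log2 ratio of 0.20. One of those was lowered (4%, against 0.574% of all peaks). It was peak 7 of Zc3h11a, with 75.7 wild-type and 4.27 knockout reads (adjusted p = 0.00162 from the p of the authors' deposited table). Sets of 73 and 25 peaks are too small for their counts of called peaks to tell the groups apart.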

How the data were processed

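AGO2 HITS-CLIP was done by the authors on 12 wild-type and 12 miR-155 knockout libraries of activated CD4+ T cells. Reads went through Bowtie 0.12.7 with the mm9 genome, as named in the submitters' processing notes. For the peak caller, scaling and test, nothing is stated in the labels. The authors deposited log2 values of the reads of each genotype, pooled over libraries, and their log2 ratio, wild type over knockout, which was the first minus the second to within 6e-05. The deposited p-value of each peak is for differential binding. Because the table is pooled, the planned test across libraries could not be made. Which spread the deposited p-values measure, and whether it is one between libraries, is not known. Peak start and end are, per the file headers, counted within the 3′ UTR. Depth of the libraries is unknown.

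Scaled reads were computed as 2^log2 minus 1 and summed per gene. Deposited p-values were Benjamini-Hochberg adjusted over all peaks, threshold 0.05. The procedure was tested on simulated data. Deposited sequences, which reach 6 nt beyond each side of a peak, were searched for 7-nt and 8-nt sites of 16 microRNA families with seeds from RefSeq (GRCm38.p6). Of 344 sequences, 336 (97.7%) matched a GENCODE M21 transcript of their gene exactly, 334 of them in 3′ UTRs and 2 on transcripts without a coding region. These positions are on GRCm38, not mm9. Zfp708 peak 1 also matched another gene. Of 317 placed on the named transcript, 266 had the deposited start.

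Members and lists were chosen with earlier results of these data known. Named genes were the 15 with most reads, the 5 with most peaks, those with an adjusted p under 0.05 or among the 10 smallest p, those with a miR-155 match, those of the 5 highest and 5 lowest ratios at 20 or more reads, and those of the 3 peaks nearest to and farthest from the stop codon, ties included. With 1 exception, not reported here, all genes under this rule are named. Zfp839, Zfp280c, Zfp512, Zfp516, Zfp708, Zfp748, Zfp937 and Zfp473 fall outside it and were picked with their values in view. Alternatives were other p thresholds, read minimums, pseudocount, centring, site definitions and member lists. Python 3.11.15, NumPy 2.4.6, SciPy 1.17.1, pandas 2.3.3 and matplotlib 3.10.9 were used.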

Additional observations from a re-analysis of the deposited data

How the results depend on the processing

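No paired analysis was possible because the table pools the libraries of each genotype, and for the same reason no library or replicate could be left out. The count of 3 lowered Zfp peaks stayed at 3 with adjusted p thresholds of 0.01 and 0.1 and with at least 10 scaled reads; it was 2 with a Bonferroni adjustment and 2 with only peaks read in both genotypes, which leaves out Zfp831 peak 2. No peak was raised in any of these. The median log2 ratio of 0.24 changed sign to -0.027 with at least 10 scaled reads and to -0.15 with at least 20, where that of all peaks was 0.09 and -0.00. It was 0.060 without a pseudocount over peaks read in both genotypes, 0.25 centred, 0.18 with the Zfp36 prefix included and 0.18 per gene. It was 0.23 with Zfp362 and Zfp367 and 0.43 without the 5 most read genes, both chosen after seeing the data. The share of peaks with a family site, 36.3%, was 48.8% with 6-nt matches and 13.95% with 8-nt matches only. The share with a miR-155 site, 3.78%, was 0.581% with 8-nt matches only. That is 2 of the 344 Zfp peaks beside 67 of the 14634 peaks, too few to show a higher share in Zfp peaks. Reads per gene were 45.2 with Znf genes, 52.1 with the Zfp36 prefix and 39.0 without the 5 most read genes. The median start was 1286 nt at 20 or more reads, 956 nt per gene, 1150 nt without Zfp871 and 1138 nt also without Zfp473, the last pair added after seeing the data. Other causes of these shifts were not tested. With 1 value per genotype and unknown depth, small differences cannot be resolved.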
